A study of Mus musculus with 8 samples.

Results

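The genes described here are 4 fibroblast growth factor (FGF) ligands, Fgf2, Fgf7, Fgf10 and Fgf18, the growth factor gene Hgf of another family, and 5 feedback inhibitors of the same signalling route, Spry1, Spry2, Spry4, Dusp6 and Spred1. They were taken by gene symbol, 10 of the 55276 symbols in the deposited expression tables. The rule uses no threshold on a measured value, but the set was drawn up with earlier results of these data known, so the counts over it below are descriptions. The libraries came from fibro-adipogenic progenitors (FAPs), the resident mesenchymal cells of skeletal muscle, isolated from the tibialis anterior of mice 4 to 6 months old after it had been pierced with a frozen needle. Control mice (Ctrl) carried Osr1 flox/+ with CAGG Cre+ and Osr1cKO mice carried Osr1 flox/flox with CAGG Cre+, so that controls were heterozygous and both genotypes carried Cre. The inducible Cre was ubiquitous, both genotypes received tamoxifen on the day of injury and on the following days, and cells were sorted for the eGFP that a recombined Osr1 allele expresses and against blood and endothelial surface markers. At 3 days post-injury (dpi) a library came from 1 mouse, and at 7 dpi from 4 pooled mice, with 2 libraries in each of the 4 groups.

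FGF ligands are secreted proteins that bind heparan sulfate and signal through receptor tyrosine kinases, from which the Ras-ERK cascade is switched on. HGF, cut into its active form outside the cell, acts through the receptor Met on the same cascade and is known in muscle as a factor that wakes quiescent stem cells. Sprouty and Spred proteins restrain Ras-ERK signalling, Dusp6 removes phosphate from ERK, and all are commonly transcribed more when the pathway is active, so that they form a feedback loop.

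Promoter sequence is shown for 3 genes to which the results return, Spry1 and Fgf7, which had the smallest p-values between genotypes at 7 dpi, and Spry2, the most abundant transcript of the group. Each line gives the 250 bases before the RefSeq transcription start in GRCm38.p6 (the assembly of mm10), written 5′ to 3′ on the gene's own strand. The window of Spry1 lies at chr3:37639697-37639946 on the plus strand, that of Spry2 at chr14:105896820-105897069 on the minus strand, and that of Fgf7 at chr2:126034408-126034657 on the plus strand. Capitals mark the only match to the 7 motifs searched on both strands.
Spry1: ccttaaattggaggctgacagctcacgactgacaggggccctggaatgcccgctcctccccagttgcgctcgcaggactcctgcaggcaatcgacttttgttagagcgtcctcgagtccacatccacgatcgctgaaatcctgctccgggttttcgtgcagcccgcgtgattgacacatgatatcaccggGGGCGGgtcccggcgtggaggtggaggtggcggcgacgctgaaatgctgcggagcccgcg
Spry2: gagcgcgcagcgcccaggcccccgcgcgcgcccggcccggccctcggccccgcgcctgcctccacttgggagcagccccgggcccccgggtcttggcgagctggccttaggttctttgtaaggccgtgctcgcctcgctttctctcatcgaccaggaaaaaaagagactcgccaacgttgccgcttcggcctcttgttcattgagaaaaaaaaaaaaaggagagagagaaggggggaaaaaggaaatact
Fgf7: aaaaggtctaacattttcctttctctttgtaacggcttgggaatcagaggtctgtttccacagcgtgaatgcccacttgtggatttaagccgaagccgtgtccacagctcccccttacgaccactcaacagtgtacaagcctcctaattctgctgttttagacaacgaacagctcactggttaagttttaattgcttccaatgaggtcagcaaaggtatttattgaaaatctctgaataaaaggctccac
The odd-skipped core searched was CAGTAGC, which 3.03% of the 32851 promoter windows of this length held. The ETS letters were CCGGAA, present in 12% of all windows. The AP-1 letters were TGANTCA, present in 6.75% of all windows. The core of the CRE, TGACG, was present in 17.8% of all windows. The TATA box was searched as TATAAA and was present in 12.4% of all windows. The GC box was searched as GGGCGG and was present in 32.7% of all windows, and the CArG box in 1.47%. The Spry1 window held 1 GC box, starting at base -60, and the windows of Spry2 and Fgf7 held none of the 7 motifs. The G and C content was 62.4% in Spry1, 62.4% in Spry2 and 43.6% in Fgf7, beside a median of 52.4% over all windows. The table matched 9 of the 10 genes.

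Levels are given as deposited TPM, a measure of transcript abundance corrected for transcript length and for the total of the library, which can be compared between genes. Differences are log2 fold changes of TPM + 1 after scaling between libraries, tested with limma across all genes of a comparison, and adjusted p-values are Benjamini-Hochberg values over all of those genes. A gene was called at 3 dpi for a fold change above 1.2 at an unadjusted p below 0.05, at 7 dpi when the fold change exceeded 1.2 and the adjusted p was under 0.1, and between days when the fold change exceeded 1.2 and the adjusted p was under 0.05. The libraries held between 36517401 and 51098397 fragments assigned to genes. All 10 genes passed the filter on low values in every comparison. Replicates were separate mice at 3 dpi and separate pools at 7 dpi.

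The libraries carried the markers of FAPs at a summed level of 19998 to 34786 TPM over 6 genes, none of them at 0. Most of the sum was the collagen gene Col1a1, at 12404 to 28083 TPM. At 3 dpi Ly6a had 5407 and 4232 TPM in controls and 3058 and 2020 TPM in Osr1cKO. Pdgfra and Dcn were also lower in both 3 dpi Osr1cKO libraries, whereas Col1a1, Lum and Cd34 overlapped between genotypes. At 7 dpi all 6 overlapped between genotypes. Pdgfra and Ly6a were lower at 7 than at 3 dpi, and Dcn, Lum and Cd34 were higher. Markers of other cells were low, and most lists were higher at 7 dpi: the macrophage list (6 genes) summed to 10.9 to 19.7 TPM at 3 dpi and 41.8 to 63.9 TPM at 7 dpi, with the leukocyte gene Ptprc under 1 TPM in every library. The muscle stem cell list (4 genes) summed to at most 1.32 TPM at 3 dpi and to between 1.29 and 14.3 TPM at 7 dpi, highest in the first 7 dpi control library, with Pax7 at 2.30 TPM there. That library was also the only one with the T cell gene Cd3e above 1 TPM, at 4.27. The other lists moved likewise with day, from 17.2 to 44.3 and then 46.0 to 70.5 TPM for 4 endothelial genes, from 10.9 to 23.5 and then 30.4 to 90.7 TPM for 3 mural genes, from 5.40 to 10.8 and then 32.7 to 53.1 TPM for 5 myofiber genes and from 0 to 1.35 and then 10.2 to 45.4 TPM for 3 erythroid genes. At 7 dpi the myofiber, macrophage and lymphoid lists also separated the genotypes. The myofiber list had 53.1 and 51.8 TPM in controls and 32.7 and 35.4 TPM in Osr1cKO. The macrophage list had 41.8 and 45.4 TPM in controls and 46.6 and 63.9 TPM in Osr1cKO. The lymphoid list had 4.34 and 0.288 TPM in controls and 0.149 and 0.259 TPM in Osr1cKO. Schwann cell genes (3) stayed at or under 2.97 TPM and the lymphoid list (4 genes) was at most 0.288 TPM outside the first 7 dpi control library.

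Sex-linked transcripts also moved with the groups. All 4 libraries at 3 dpi expressed Xist, the transcript of the inactive X chromosome, at 33.9 to 52.9 TPM, with the Y-linked gene Ddx3y at 0. At 7 dpi the control libraries had Xist at 12.4 and 0.0252 TPM and Ddx3y at 47.5 and 48.6 TPM, whereas the Osr1cKO libraries had Xist at 109.9 and 102.6 TPM and Ddx3y at 10.5 and 2.22 TPM. Male and female transcripts therefore differed between genotypes at 7 dpi and between days, more so in controls than in Osr1cKO, so that sex and genotype at 7 dpi, and sex and day, cannot be told apart in the differences given here. Day also went together with the pooling of mice and possibly with the sequencing instrument.

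Osr1 itself had 105 and 91.0 TPM in 3 dpi controls against 70.7 and 71.9 TPM in Osr1cKO, and 67.6 and 71.6 TPM in 7 dpi controls against 64.4 and 60.8 TPM in Osr1cKO. It was lower in both libraries of Osr1cKO at each day, with log2 differences of -0.45 (SE 0.127, unadjusted p = 0.0163) at 3 dpi, a call, and -0.28 (SE 0.083, unadjusted p = 0.0167, limma adjusted p = 0.32) at 7 dpi. Only 1 gene-level value is given per library, so the deleted exon is not resolved and this value does not check it.

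Among the 10 genes Spry2 was the most abundant transcript in every group and Fgf10 the least. In 3 dpi controls the mean levels were, in descending order, 243.6 TPM for Spry2, 55.1 for Dusp6, 53.4 for Spred1, 42.3 for Fgf18, 36.0 for Fgf7, 30.6 for Spry1, 20.3 for Spry4, 18.7 for Fgf2, 5.78 for Hgf and 0.362 for Fgf10. The neighbours Dusp6 and Spred1, and Spry4 and Fgf2, overlapped between their libraries there. In 7 dpi Osr1cKO the order was Spry2 (312.5 TPM), Dusp6 (81.4), Fgf7 (64.0), Fgf18 (54.3), Spred1 (50.52), Spry1 (41.5), Spry4 (17.9), Hgf (14.8), Fgf2 (9.20) and Fgf10 (2.91), with Fgf7 overlapping Fgf18 and Fgf18 overlapping Spred1. Between genotypes at 7 dpi the order changed most for Fgf7, the sixth in controls and the third in Osr1cKO, and for Spry1, the third in controls and the sixth in Osr1cKO. The plot of TPM by library shows all values.

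**Figure D1:**
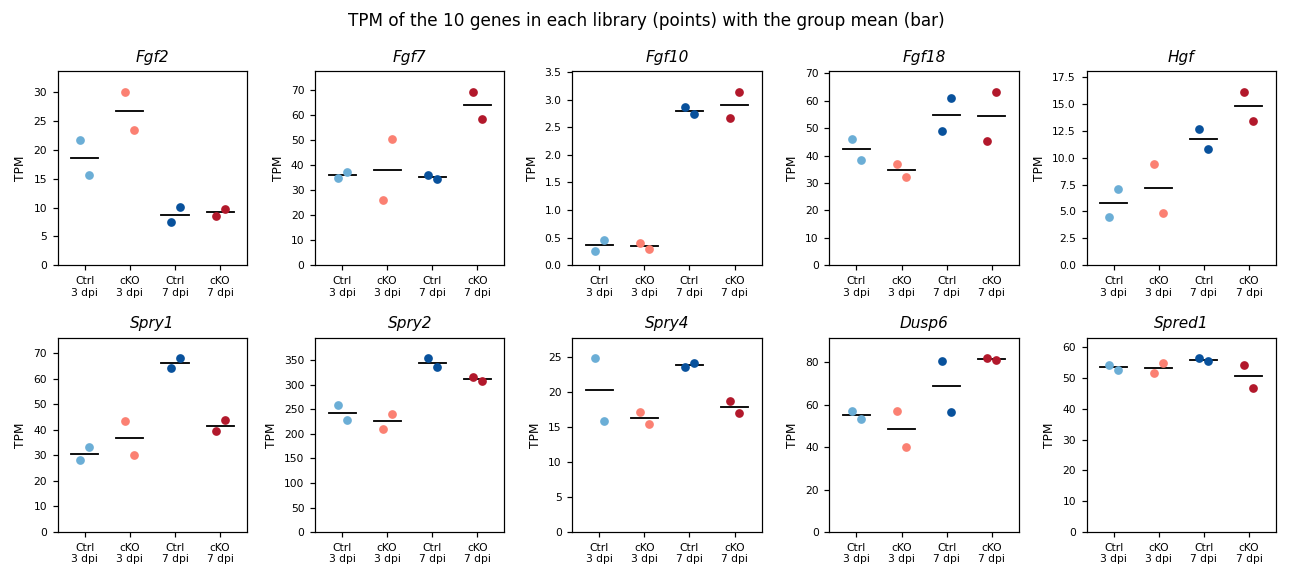
TPM of each of the 10 genes (vertical axis from 0, own scale per gene) in the 8 libraries, grouped by genotype and dpi; points are libraries and bars are the means of 2 libraries. At 7 dpi both Osr1cKO libraries lie above both control libraries for Fgf7 and below them for Spry1, Spry2 and Spry4, Fgf2 is lower at 7 than at 3 dpi, and Fgf10 is higher.

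Of the 4 FGF ligands, Fgf2 fell and Fgf10 rose from 3 to 7 dpi in both genotypes. Fgf18 was higher at 7 dpi in both genotypes, a difference that was a call in Osr1cKO and not in controls. Fgf2 (ENSMUSG00000037225.13, chr3:37348346-37410108 of mm10), a broad mitogen for mesenchymal and muscle cells, had 21.7 and 15.6 TPM in 3 dpi controls and 30.1 and 23.4 TPM in 3 dpi Osr1cKO, and 7.46 and 10.03 TPM in 7 dpi controls and 8.63 and 9.78 TPM in 7 dpi Osr1cKO. Both Osr1cKO libraries were above both controls at 3 dpi, the genotypes overlapped at 7 dpi, and every 3 dpi library was above every 7 dpi library. It fell between days by 0.94 in controls (SE 0.204, limma adjusted p = 0.00911) and fell by 1.49 in Osr1cKO (SE 0.204, limma adjusted p = 0.00191). The difference between genotypes at 3 dpi was 0.50 (SE 0.229, 95% interval -0.08 to 1.09, unadjusted p = 0.0786, limma adjusted p = 0.824), which was not a call. It passed the 3 dpi threshold, at 0.72, without the first control library. Without the first 7 dpi control library the difference in controls was -0.76 with a limma adjusted p of 0.0599, no longer a call.

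Of the exon bases of Fgf2, 9.44% overlap the coding gene Nudt6 on the opposite strand, which had 3.19 to 6.13 TPM. How the fragments were assigned by strand is not given in the sources used here, so that reads of this stretch cannot be attributed to one of the genes.

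Fgf7 (ENSMUSG00000027208.14, chr2:126034658-126091185), a ligand that mesenchymal cells secrete and that acts mainly on the epithelial splice form of Fgfr2, had 34.8 and 37.1 TPM in 3 dpi controls and 26.3 and 50.3 TPM in 3 dpi Osr1cKO. At 7 dpi it had 36.0 and 34.3 TPM in controls and 69.4 and 58.6 TPM in Osr1cKO. The control libraries lay within a narrow range at both days, the 3 dpi Osr1cKO libraries lay on either side of them, and both 7 dpi Osr1cKO libraries were above every other library. The difference between genotypes was 0.02 at 3 dpi (SE 0.301, 95% interval -0.76 to 0.79, unadjusted p = 0.962) and 0.71 at 7 dpi (SE 0.118, 95% interval 0.42 to 1.01, unadjusted p = 0.00127, limma adjusted p = 0.222), so that the 7 dpi difference passed the unadjusted and not the adjusted threshold. The change between days was 0.04 in controls (SE 0.266, limma adjusted p = 0.903) and 0.73 in Osr1cKO (SE 0.266, limma adjusted p = 0.0639), and neither was a call. The difference in Osr1cKO became a call on deposited TPM (0.79, limma adjusted p = 0.0497), with a filter on mean TPM (0.81, limma adjusted p = 0.0466) and with limma-voom (0.75, adjusted p = 0.0474). It rested on the 3 dpi Osr1cKO libraries, being 1.17 without the second (limma adjusted p = 0.00838) and 0.28 without the first (limma adjusted p = 0.252). The difference between these changes was 0.69 (SE 0.376, unadjusted p = 0.11, limma adjusted p = 0.813).

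Fgf10 (ENSMUSG00000021732.14, chr13:118669791-118792115), which shares the receptor splice form of Fgf7, was near the detection limit at 3 dpi, with 0.262 and 0.461 TPM in controls and 0.395 and 0.299 TPM in Osr1cKO. These values rest on 15 to 27 fragments, and the lowest has a 95% Poisson interval of 0.147 to 0.432 TPM for counting error alone. At 7 dpi it had 2.86 and 2.74 TPM in controls and 2.67 and 3.14 TPM in Osr1cKO, from 118 to 142 fragments. The days did not overlap and the genotypes overlapped at both days. Fgf10 rose by 1.53 in controls (SE 0.147, limma adjusted p = 0.000461) and by 1.49 in Osr1cKO (SE 0.147, limma adjusted p = 0.000797), the largest rises among the 10 genes. Because 1 was added to each TPM, these differences understate the change in the low 3 dpi values.

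Fgf18 (ENSMUSG00000057967.12, chr11:33117430-33147400), best known in skeletal and lung development, had 46.1 and 38.5 TPM in 3 dpi controls, 37.0 and 32.3 TPM in 3 dpi Osr1cKO, 48.8 and 61.0 TPM in 7 dpi controls and 45.3 and 63.3 TPM in 7 dpi Osr1cKO. Both Osr1cKO libraries were below both controls at 3 dpi, with a log2 difference of -0.28 (SE 0.160, 95% interval -0.69 to 0.13, unadjusted p = 0.141), and the genotypes overlapped at 7 dpi. In deposited TPM the days did not overlap in either genotype, with the 7 dpi libraries higher. Between days Fgf18 rose by 0.55 in Osr1cKO (SE 0.172, limma adjusted p = 0.0386). In controls the difference was 0.44 (SE 0.172, limma adjusted p = 0.0727), which was not a call. The call in Osr1cKO was lost when either 3 dpi Osr1cKO library or the second 7 dpi Osr1cKO library was left out, the last giving 0.36 (limma adjusted p = 0.204).

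Hgf (ENSMUSG00000028864.7, chr5:16553495-16620152) had 4.48 and 7.09 TPM in 3 dpi controls, 9.40 and 4.87 TPM in 3 dpi Osr1cKO, 12.7 and 10.8 TPM in 7 dpi controls and 16.1 and 13.4 TPM in 7 dpi Osr1cKO. Every 7 dpi library was above every 3 dpi library, and at 7 dpi both Osr1cKO libraries were above both controls. Hgf rose by 1.001 in controls (SE 0.323, limma adjusted p = 0.0397), and in Osr1cKO the difference was 0.95 (SE 0.323, limma adjusted p = 0.0526), just outside the threshold. The difference in Osr1cKO became a call on deposited TPM (limma adjusted p = 0.037), with a filter on mean TPM (0.0375), with limma-voom (0.0293) and with robust eBayes (0.0473). It was 1.37 without the first 3 dpi Osr1cKO library (limma adjusted p = 0.0249), 0.51 without the second (limma adjusted p = 0.249), and a call without either 3 dpi control library (limma adjusted p = 0.0367 and 0.0374). Leaving out the first 3 dpi control library reduced the rise in controls to 0.68 and ended the call (limma adjusted p = 0.156), as did leaving out either 7 dpi control library (limma adjusted p = 0.158 and 0.0931) or either 7 dpi Osr1cKO library (0.0597 and 0.059). The genotype differences were 0.23 at 3 dpi (SE 0.374, unadjusted p = 0.565) and 0.18 at 7 dpi (SE 0.156, 95% interval -0.21 to 0.57, unadjusted p = 0.29), neither past a threshold. The separation at 7 dpi was in deposited TPM, whereas these differences were taken after scaling. The scaling divided TPM by 0.949 and 0.962 in the 7 dpi controls and by 1.025 and 1.069 in 7 dpi Osr1cKO. The exons of Hgf overlap the unconfirmed transcript Gm43489 on the same strand over 6.74% of their bases. That transcript had 0.0809 to 0.478 TPM at 3 dpi and 1.05 to 1.78 TPM at 7 dpi. Reads of this stretch cannot be told apart between the genes.

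All 3 Sprouty genes were lower in both Osr1cKO libraries than in both controls at 7 dpi, past the unadjusted and not the adjusted threshold. Spry1 (ENSMUSG00000037211.12, chr3:37639947-37644598), whose product is known in muscle for its part in returning stem cells to quiescence, had 28.0 and 33.1 TPM in 3 dpi controls and 43.3 and 30.3 TPM in 3 dpi Osr1cKO. At 7 dpi it had 64.1 and 67.9 TPM in controls and 39.3 and 43.7 TPM in Osr1cKO. The genotypes overlapped at 3 dpi, and at 7 dpi both controls were above every other library. Spry1 was lower in Osr1cKO at 7 dpi by a log2 difference of -0.79 (SE 0.078, 95% interval -0.98 to -0.59, unadjusted p = 9.1e-05, limma adjusted p = 0.113), the smallest p of the 10 genes and just outside the adjusted threshold. This is a ratio of 0.579 in TPM + 1 after scaling, where the means of deposited TPM were 66.0 in controls and 41.5 in Osr1cKO. At 3 dpi the difference was 0.24 (SE 0.225, 95% interval -0.34 to 0.82, unadjusted p = 0.332).

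Between days Spry1 rose by 1.17 in controls (SE 0.182, limma adjusted p = 0.00243), while in Osr1cKO the difference was 0.13 (SE 0.182, limma adjusted p = 0.605). The genotype difference at 7 dpi minus that at 3 dpi was -1.04 (SE 0.258, unadjusted p = 0.00469, limma adjusted p = 0.596), so that the change of the genotype effect with day did not pass adjustment. The first 7 dpi control library, with the most muscle stem cell transcripts, had the lower Spry1 of the pair. The part of muscle stem cell transcripts in the Spry1 difference was not tested. Without the first 7 dpi control library the 7 dpi difference was -0.82, and without the second control library it was -0.76. Leaving out the first or the second 7 dpi Osr1cKO library gave -0.74 and -0.83. With all 8 libraries in 1 fit the 7 dpi difference was -0.77 (limma adjusted p = 0.524), not a call. The exons of Spry1 overlap the unconfirmed transcript Gm42922 on the opposite strand over 24.4% of their bases, and that transcript was under 1 TPM in all libraries.

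Spry2 (ENSMUSG00000022114.5, chr14:105891947-105896819) had 259 and 228 TPM in 3 dpi controls, 210 and 241 TPM in 3 dpi Osr1cKO, 354 and 336 TPM in 7 dpi controls and 317 and 308 TPM in 7 dpi Osr1cKO. It ranked between the 95.9th and 97.7th percentile of the genes tested in each group. The 7 dpi libraries were all above the 3 dpi libraries and the 7 dpi controls were above the 7 dpi Osr1cKO libraries. Spry2 rose by 0.58 in controls (SE 0.111, limma adjusted p = 0.00538) and by 0.41 in Osr1cKO (SE 0.111, limma adjusted p = 0.0247), and the Osr1cKO call was lost without the first 3 dpi Osr1cKO library (0.31, limma adjusted p = 0.128) or without either 7 dpi Osr1cKO library (limma adjusted p = 0.121 and 0.0714). At 7 dpi the genotype difference was -0.27 (SE 0.082, 95% interval -0.48 to -0.07, unadjusted p = 0.0181, limma adjusted p = 0.325). On deposited TPM without further scaling it was -0.14 (unadjusted p = 0.103), and without the first 7 dpi control library or the second 7 dpi Osr1cKO library the unadjusted p was 0.0932 and 0.0826.

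Spry4 (ENSMUSG00000024427.7) had 24.8 and 15.9 TPM in 3 dpi controls, 17.1 and 15.4 TPM in 3 dpi Osr1cKO, 23.5 and 24.2 TPM in 7 dpi controls and 18.7 and 17.0 TPM in 7 dpi Osr1cKO. At 7 dpi both Osr1cKO libraries were below both controls, and the first 3 dpi control library was as high as the 7 dpi controls. The difference at 7 dpi was -0.52 (SE 0.104, 95% interval -0.78 to -0.26, unadjusted p = 0.00308, limma adjusted p = 0.245). At 3 dpi it was -0.28 (SE 0.244, unadjusted p = 0.308), and without the second 3 dpi control library it was -0.58 and passed the 3 dpi threshold. The change between days was 0.33 in controls (SE 0.188, limma adjusted p = 0.192) and 0.07 in Osr1cKO (SE 0.188, limma adjusted p = 0.786), and in controls it became a call, at 0.59, without the first 3 dpi control library (limma adjusted p = 0.0166).

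The remaining feedback genes of the 10 were Dusp6 and Spred1. Dusp6 (ENSMUSG00000019960.8, chr10:99263231-99267489), the cytoplasmic ERK phosphatase, had 57.2 and 53.1 TPM in 3 dpi controls, 56.9 and 40.2 TPM in 3 dpi Osr1cKO, 80.7 and 56.4 TPM in 7 dpi controls and 81.8 and 80.9 TPM in 7 dpi Osr1cKO. The 7 dpi controls lay far apart and the higher of them was next to the Osr1cKO libraries. Dusp6 rose between days in Osr1cKO by 0.69 (SE 0.215, limma adjusted p = 0.0386), a call that was lost when the second 3 dpi Osr1cKO library or either 7 dpi Osr1cKO library was left out (limma adjusted p = 0.191, 0.142 and 0.114). In controls the difference was 0.37 (SE 0.215, limma adjusted p = 0.201). Between genotypes it was -0.20 at 3 dpi (SE 0.206, 95% interval -0.73 to 0.33) and 0.14 at 7 dpi (SE 0.175, 95% interval -0.30 to 0.57).

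Spred1 (ENSMUSG00000027351.14, chr2:117121374-117182279), which brings the Ras inactivator neurofibromin to the membrane, was the steadiest of the 10 genes. It had 54.1 and 52.6 TPM in 3 dpi controls, 51.5 and 54.7 TPM in 3 dpi Osr1cKO, 56.3 and 55.4 TPM in 7 dpi controls and 54.2 and 46.8 TPM in 7 dpi Osr1cKO. At 7 dpi the second Osr1cKO library was the lowest of all and the first lay close to the controls. The 7 dpi difference was -0.28 (SE 0.108, 95% interval -0.55 to -0.01, unadjusted p = 0.0461, limma adjusted p = 0.389). It was -0.15 on deposited TPM without further scaling (unadjusted p = 0.171) and -0.14 without the second Osr1cKO library (unadjusted p = 0.201), and leaving out either 7 dpi control library gave an unadjusted p of 0.108 and 0.071.

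Counted over the 10 genes, 0 were called between genotypes at 3 dpi by limma, where 6.27% of the 15699 genes tested were called, and none had an unadjusted p under 0.05 in limma or limma-voom. The TPM of the genotypes did not overlap for 2 of the 10 genes, Fgf2 and Fgf18, beside 36.2% of all genes tested. At 7 dpi 0 of the 10 were called at the adjusted threshold, where 0.0664% of 16578 genes (11 genes) were called by limma. At the unadjusted threshold of 3 dpi 1 of the 10 was higher, Fgf7, beside 5.21% of all genes, and 4 were lower, Spry1, Spry2, Spry4 and Spred1, beside 5.91% of all genes. With limma-voom on recovered fragments, 1 was higher (Fgf7, adjusted p = 0.0527) and 2 lower (Spry1, adjusted p = 0.0164, and Spry4, adjusted p = 0.0829) at the adjusted threshold, beside 0.452% of the 16358 genes tested that way called higher and 0.697% called lower. On deposited TPM without further scaling, which moved the median difference of all genes from 0.005 to 0.109, the 1 higher gene and 2 of the 4 lower genes, Spry1 and Spry4, passed the unadjusted threshold. In deposited TPM, before scaling, the genotypes did not overlap for 7 of the 10 genes at 7 dpi, beside 53.5% of all genes. Xist and Ddx3y separated the same libraries. The 7 genes were Fgf7, Hgf, Spry1, Spry2, Spry4, Dusp6 and Spred1. For Dusp6 the nearest libraries had 80.75 TPM in controls and 80.88 TPM in Osr1cKO. The myofiber list was lower in the Osr1cKO libraries in which Spry1, Spry2, Spry4 and Spred1 were lower. Its actin gene Acta1 had 28.7 and 20.6 TPM in controls and 14.4 and 14.1 TPM in Osr1cKO. Ckm, Myh1 and Tnnt3 of that list were also lower in both Osr1cKO libraries. Myh4 went the other way, with 0.278 and 0.256 TPM in controls and 0.311 and 0.346 TPM in Osr1cKO. The macrophage sum was higher in the Osr1cKO libraries, in which Fgf7 was higher. Of that list Lyz2, C1qa and Adgre1 overlapped between genotypes, and Cd68, Csf1r and Ptprc did not. The 7 dpi Osr1cKO library with the higher Fgf7 had the lower macrophage sum, 46.6 against 63.9 TPM. The part of these transcripts in the differences was not tested.

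Between days in controls 4 of the 10 genes rose, Fgf10, Hgf, Spry1 and Spry2, where 21.3% of the 17371 genes tested rose, and 1 fell, Fgf2, where 24.1% fell. In Osr1cKO 4 rose, Fgf10, Fgf18, Spry2 and Dusp6, where 18.2% of all genes rose, and 1 fell, Fgf2, where 21.9% fell. The median change was 0.40 in controls and 0.48 in Osr1cKO, beside 0.02 and 0.02 over all genes tested. The genotype effect differed between days for 0 of the 10 genes by limma at the adjusted threshold of 0.05, where 0% of all genes passed, and Spry1 was the 1 gene of the 10 with an unadjusted p under 0.05, where 6.78% of all genes had one. By limma-voom no gene passed the adjusted threshold. Pools of sorted cells do not tell whether a lower value came from fewer cells that expressed a gene or from less RNA in each cell.

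**Figure D2:**
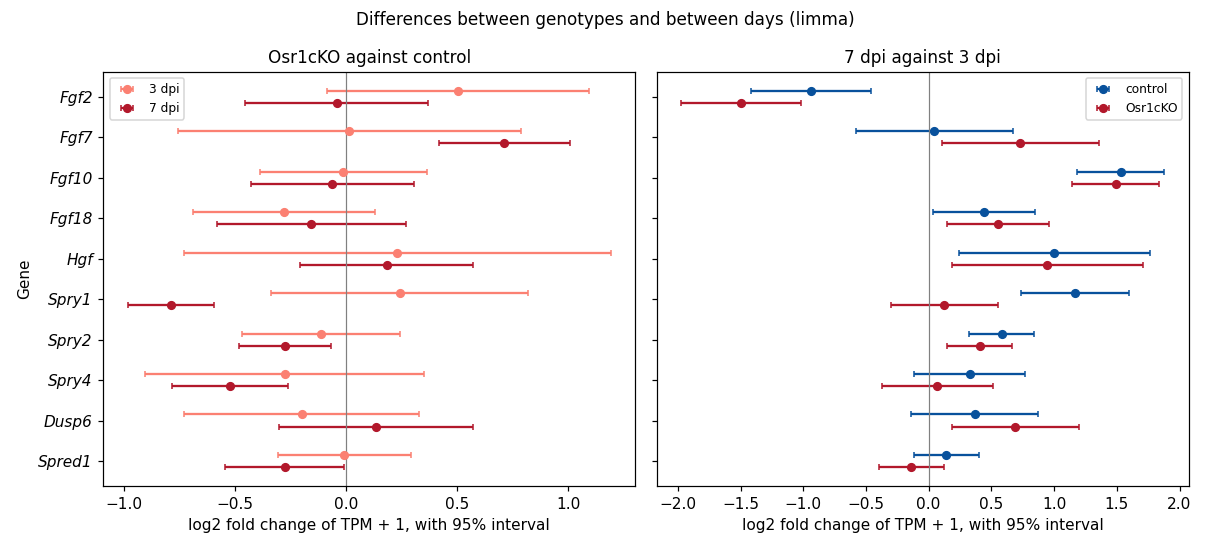
Log2 fold change of TPM + 1 for the 10 genes with 95% intervals from limma, between genotypes at 3 and 7 dpi (left) and between days in control and Osr1cKO (right), 2 libraries per group. At 7 dpi the intervals of Fgf7, Spry1, Spry2, Spry4 and Spred1 leave out 0, before adjustment for the number of genes, and between days Spry1 changed by 1.17 in controls and 0.13 in Osr1cKO.

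The receptors and co-receptors were dominated by Fgfr1, named here after its values were seen, which had 224 to 342 TPM over the 8 libraries and did not differ by genotype beyond the spread, by -0.09 at 3 dpi (unadjusted p = 0.66) and 0.01 at 7 dpi (unadjusted p = 0.93). Of the 11 listed genes 9 could be tested at 3 dpi and 10 in the other comparisons. None was called between genotypes at either day. The smallest p-values at 3 dpi belonged to Met, the HGF receptor, with 5.13 and 2.80 TPM in controls and 1.97 and 2.68 TPM in Osr1cKO (-0.55, unadjusted p = 0.12), and to Flrt3 (0.35, unadjusted p = 0.15). At 7 dpi they belonged to Flrt2, a membrane protein that binds FGF receptors (-0.39, unadjusted p = 0.022, limma adjusted p = 0.34), and to Met, with 3.99 and 3.01 TPM in controls and 4.52 and 6.13 TPM in Osr1cKO (0.38, unadjusted p = 0.10). Between days 3 receptor genes rose in controls and 4 in Osr1cKO, and none fell. Over all genes tested 21.3% rose and 24.1% fell in controls, and 18.2% rose and 21.9% fell in Osr1cKO. These shares also stand beside the counts between days in the lists that follow. Fgfr2, whose epithelial splice form binds Fgf7 and Fgf10, rose by 1.86 in controls (limma adjusted p = 0.0011) and by 1.70 in Osr1cKO (limma adjusted p = 0.002), from 0.895 to 1.83 TPM at 3 dpi to 5.62 to 8.04 TPM at 7 dpi. Fgfrl1, a receptor without a kinase domain, rose by 0.76 in both genotypes, and Flrt3 by 1.29 in controls and 0.96 in Osr1cKO. The splice forms are not resolved in gene-level TPM.

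Of 18 other FGF genes 7 passed the filter in the genotype comparisons and 8 between days, and none was called between genotypes. Fgf11 (0.34, unadjusted p = 0.10) and Fgf23 (-0.63, unadjusted p = 0.12) had the smallest p-values at 3 dpi. At 7 dpi Fgf23, a hormone-like member, had 1.53 and 1.15 TPM in controls and 0.287 and 0.631 TPM in Osr1cKO (-0.75, unadjusted p = 0.0061, limma adjusted p = 0.27), and Fgf21 followed (-0.51, unadjusted p = 0.18). Between days 3 rose in each genotype and none fell. Fgf1, which binds all FGF receptors, rose by 2.26 in controls (limma adjusted p = 0.0024) and 2.41 in Osr1cKO (limma adjusted p = 0.0024), from between 0.514 and 1.96 TPM to between 7.76 and 14.9 TPM. Fgf16 rose by 1.05 and 1.36, and Fgf11, a member that stays inside the cell, by 1.10 and 0.84, in controls and Osr1cKO.

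Genes that set how FGF and HGF reach their receptors, by building or trimming heparan sulfate or by cutting pro-HGF, made up a list of 19, of which 17 were tested at 3 dpi, 16 at 7 dpi and 18 between days. At 3 dpi 2 were called higher in Osr1cKO and 1 lower, where 6.27% of all genes tested were called in either direction. Sulf1, an enzyme that removes sulfate from heparan sulfate, had 80.6 and 128 TPM in controls and 163 and 153 TPM in Osr1cKO at 3 dpi (0.63, unadjusted p = 0.049, limma adjusted p = 0.78), and the sulfotransferase Hs2st1 was higher by 0.43 (unadjusted p = 0.047, limma adjusted p = 0.78). Spint1, an inhibitor of HGF-activating proteases, was lower by a difference of -0.53 (unadjusted p = 0.023, limma adjusted p = 0.77), at levels under 1 TPM in every library. At 7 dpi none was called, and the smallest p-values belonged to Sulf1, with 113 and 99.7 TPM in controls and 163 and 157 TPM in Osr1cKO (0.45, unadjusted p = 0.0041, limma adjusted p = 0.26), and to Plau, the urokinase that can cut pro-HGF, with 927 and 998 TPM in controls and 719 and 825 TPM in Osr1cKO (-0.45, unadjusted p = 0.0056, limma adjusted p = 0.27). Both Osr1cKO libraries were above both controls for Sulf1 at each day. Between days 4 of the list rose and 5 fell in controls, and 1 rose and 4 fell in Osr1cKO. Sulf2, another heparan sulfate sulfatase, rose by 0.78 in controls and by 0.76 in Osr1cKO. Spint1 fell by 0.69 in controls, with a difference of -0.05 in Osr1cKO (limma adjusted p = 0.759). Ext2, a heparan sulfate polymerase subunit, fell in both genotypes, with differences of -0.40 in controls and -0.37 in Osr1cKO.

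**Figure D3:**
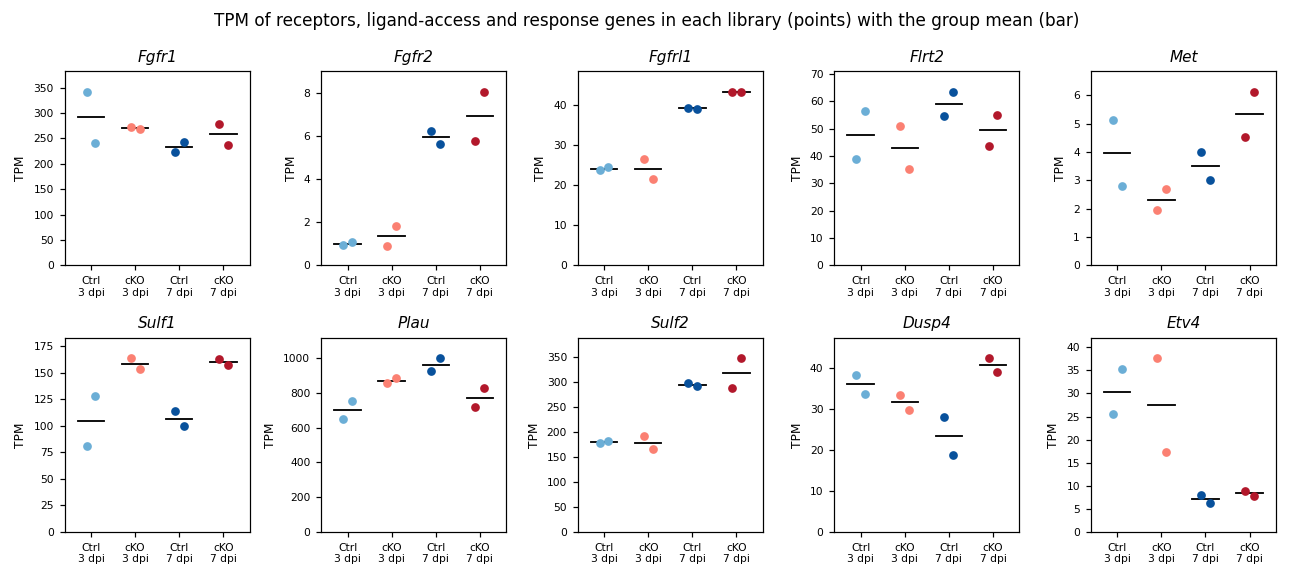
TPM (vertical axis from 0, own scale per gene) of 10 receptor, ligand-access, feedback and response genes in the 8 libraries; points are libraries and bars are the means of 2 libraries. Fgfr2, Fgfrl1 and Sulf2 are higher and Etv4 lower at 7 dpi in both genotypes, and Sulf1 is above both controls in both Osr1cKO libraries at each day.

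Of the 17 Ras-ERK transducers all were tested in each comparison. At 3 dpi Map2k1, which encodes the ERK kinase MEK1, was the 1 gene called, where 6.27% of all genes tested were called. It was lower in Osr1cKO by a difference of -0.40 (unadjusted p = 0.041, limma adjusted p = 0.78). At 7 dpi none was called, and the adaptors Shc1 (-0.26, unadjusted p = 0.018, limma adjusted p = 0.32) and Frs3 (-0.40, unadjusted p = 0.035, limma adjusted p = 0.37) had the smallest p-values. Between days 2 rose and 6 fell in controls, and 1 rose and 5 fell in Osr1cKO. Map2k1 fell by 1.41 in controls (limma adjusted p = 0.0003) and fell by 0.91 in Osr1cKO (limma adjusted p = 0.0016), and the phosphatase Ptpn11, which carries receptor signals to Ras, fell as well, with differences of -0.77 and -0.72. Map2k2, which encodes MEK2, fell by 0.91 in controls (limma adjusted p = 0.00161) and fell by 0.81 in Osr1cKO (limma adjusted p = 0.00322).

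The list of other negative feedback genes held 9, of which 8 were tested. None was called between genotypes at 3 dpi, where Dusp7 (-0.29, unadjusted p = 0.079) and Il17rd (-0.32, unadjusted p = 0.17) had the smallest p-values, or at 7 dpi. At 7 dpi Dusp4, a nuclear ERK phosphatase, had 28.0 and 18.9 TPM in controls and 42.2 and 38.9 TPM in Osr1cKO (0.66, unadjusted p = 0.017, limma adjusted p = 0.32), a direction opposite to that of the Sprouty genes. Il17rd, a membrane inhibitor of FGF receptors, differed by -0.32 (unadjusted p = 0.057). Between days Il17rd rose by 0.95 in controls (limma adjusted p = 0.0032) and 0.94 in Osr1cKO (limma adjusted p = 0.004), and Dusp7 fell by 0.34 in controls (limma adjusted p = 0.038), with a difference of -0.08 in Osr1cKO (limma adjusted p = 0.569).

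The ERK-response list held 9 genes, all tested, and none was called between genotypes. At 3 dpi Ccnd1, the cyclin that starts the cell cycle, had 176 and 106 TPM in controls and 88.0 and 87.4 TPM in Osr1cKO (-0.64, unadjusted p = 0.051), followed by Phlda1 (0.46, unadjusted p = 0.13). At 7 dpi Myc differed by -0.31 (unadjusted p = 0.02, limma adjusted p = 0.33) and Egr1 by -0.36 (unadjusted p = 0.052). Between days 1 gene rose and 2 fell in each genotype. The transcription factor gene Etv1 rose by 0.86 in controls (limma adjusted p = 0.0051) and 0.74 in Osr1cKO (limma adjusted p = 0.011), its relative Etv4 fell, with differences of -1.88 (limma adjusted p = 0.0052) and -1.56 (limma adjusted p = 0.013), and Ccnd1 fell, with differences of -2.93 (limma adjusted p = 0.00022) and -2.39 (limma adjusted p = 0.0006). Etv1 and Etv4, of one transcription factor family that is commonly read as an ERK response, thus moved in opposite directions between days. Etv1 was low, at 0.487 to 2.25 TPM. Their relative Etv5, named here after its values were seen, was not called. It differed between days by -0.16 in controls (limma adjusted p = 0.366) and -0.08 in Osr1cKO (limma adjusted p = 0.655).

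Over all 6 lists, 67 of 83 genes were tested at each day. The median difference was -0.06 at 3 dpi and -0.04 at 7 dpi, beside medians of 0.01 and 0.01 over all genes. At 3 dpi 2 genes were called higher and 2 lower, where 6.27% of all genes were called. At 7 dpi none was called by limma. At the unadjusted threshold 2 were higher, beside 5.21% of all genes, and 5 lower, beside 5.91%. For the 10 genes themselves the median was -0.01 at 3 dpi and -0.11 at 7 dpi. Of the 70 genes tested between days, 14 rose and 14 fell in controls, beside 21.3% and 24.1% of all genes. In Osr1cKO 11 rose and 11 fell, beside 18.2% and 21.9%.

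**Figure D4:**
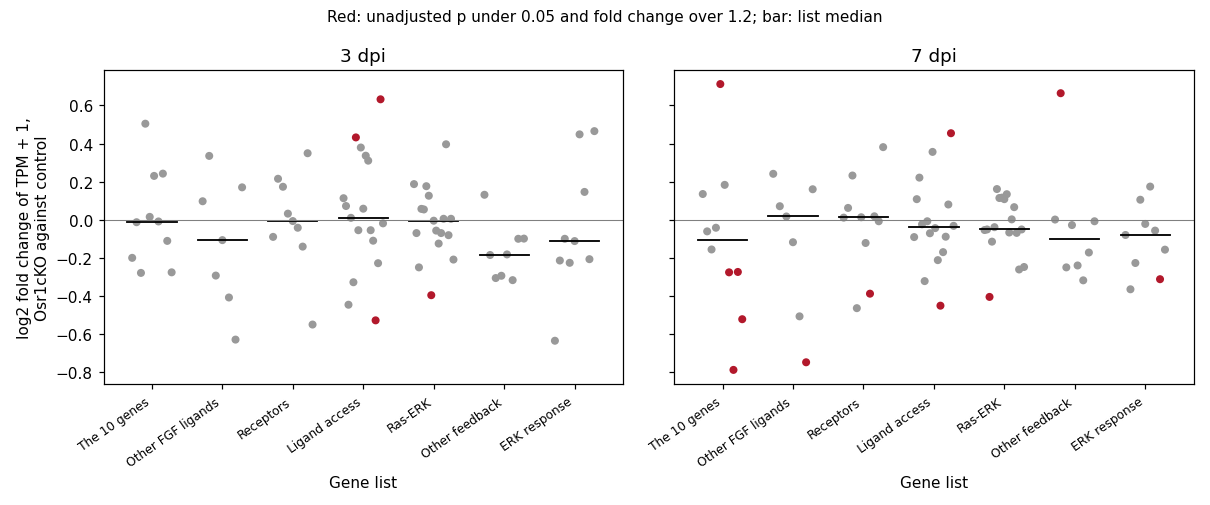
Log2 fold change of TPM + 1 in Osr1cKO against control at 3 dpi (left) and 7 dpi (right), 1 point per gene, for the 10 genes and the 6 pathway lists; red points passed the unadjusted threshold used at 3 dpi, and bars are list medians. The 10 genes have 0 red points at 3 dpi and 5 at 7 dpi, 1 above and 4 below 0.

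Among 10405 genes with a mean of at least 5 TPM outside the 10, those whose profile over the 8 libraries was closest to Fgf7, Hgf and Dusp6 were looked up, by the root mean square difference of centred log2(TPM + 1). Closest to Fgf7 were Stac2, Zfp52 and Tcfl5, at 0.152, 0.186 and 0.205, beside a spread of 0.402 for Fgf7 itself. Closest to Hgf were the fibronectin gene Fn1, Tmsb4x and Cdh3, at 0.160, 0.172 and 0.173, beside a spread of 0.574. Closest to Dusp6 were Atg12, Zfp410 and Slc9a5, at 0.108, 0.127 and 0.130, beside a spread of 0.334.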

How the data were processed

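RNA from sorted FAPs was sequenced as stranded poly(A) libraries. Per the submitters' processing notes and methods, reads were aligned with STAR to mm10 and normalised with DESeq2; the authors deposited 1 TPM value per gene and library. The counter, annotation and strand setting are not given in the sources used here. The 8 tables list 55385 entries, of which 106 symbols occur more than once.

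The members and gene lists were chosen with earlier results of these data known. Each TPM was turned back into fragments with exon lengths of GENCODE M21 (53281 symbols matched to 1 gene). Of values under 50 fragments, 98.7% to 98.9% came within 0.02 of a whole number. Recovered fragments served for depth, the filter and an alternative test. Counting error is the only error in Poisson intervals. Genes with at least 10 fragments in 2 libraries and 15 over the fit were kept, libraries were brought to a common scale through the mean of their log ratios after trimming 30%, and log2(TPM + 1) was tested with limma 3.58.1 (trended eBayes) in R 4.3.3, checked on simulated data. Genotypes were fitted within a day, and days and the interaction over all 8 libraries. Named genes of a list are at most the 3 called with smallest p, or at most 2 where none was called; some genes that this rule would name are not reported here. Promoters were matched by symbol to RefSeq tables, and no protein sequence was used here.

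Alternatives covered scaling, pseudocount, filters, limma-voom, robust eBayes, a replicate block, all libraries in 1 fit, the thresholds and each library left out. Deviations of same-numbered libraries correlated at -0.143 at 3 dpi and 0.177 at 7 dpi, and with 2 pairs a day the numbers were not taken to pair the libraries. No libraries were identical.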

Additional observations from a re-analysis of the deposited data

How the results depend on the processing

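Between genotypes at 3 dpi, members called higher numbered 0 and became 1 (Fgf2) with the replicate block and with all 8 libraries in 1 fit, where 1802 genes in place of 985 were called; at an adjusted threshold of 0.1, 0 genes were called. Leaving out each library gave 0 to 1 members higher, 0 to 1 lower and 410 to 2800 genes. A crossed pairing, added after seeing the data, gave 1194 genes and 0 members. At 7 dpi the adjusted threshold called 0 members and 11 genes, and 1 member higher, 4 lower and 1843 genes at the unadjusted p. It called 0 genes on deposited TPM, with a mean TPM filter, with no filter and with all 8 libraries in 1 fit, 188 genes with limma-voom (1 member higher, 2 lower) and 27 with the replicate block, where 1 member (Spry1) was called lower. Leaving out each library gave 5 to 314 genes, 0 to 1 members higher and 0 to 1 lower. The unadjusted counts at 7 dpi under the other settings were also computed after seeing the data. Members lower fell from 4 to 2 on deposited TPM and with all 8 libraries in 1 fit (1198 genes), leaving out each library gave 1 to 2 higher (2 without the first 7 dpi control library) and 2 to 4 lower, and deposited TPM put 83% of the genes past the unadjusted threshold on the higher side, against 46.9%.

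Between days, leaving out each library gave 0 to 1 members lower and 4691 to 8142 genes in controls (0 without the first 7 dpi control library), and 1 to 5 members higher and 3777 to 8214 genes in Osr1cKO (1 without the second 7 dpi Osr1cKO library), where no filter gave 1 member higher and deposited TPM, the mean TPM filter, limma-voom and an adjusted threshold of 0.1 gave 6 each, against 4. The replicate block ended the calls of Hgf in controls (adjusted p = 0.053) and Fgf18 in Osr1cKO (adjusted p = 0.0577). For the interaction, pseudocount 0.1 gave 3 genes, the mean TPM filter 1, no filter 30 and leaving out each library 0 to 69, none a member.

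Of the member differences, 38 values changed sign, all of them differences not called. On deposited TPM these were, at 7 dpi, Fgf2 (0.077) and Fgf10 (0.037), between days in controls Fgf7 (-0.031), and in the interaction Fgf10 (0.049) and Hgf (0.074); with all 8 libraries in 1 fit, Spred1 at 3 dpi (0.022). Leaving out each library gave at 3 dpi -0.42 to 0.45 for Fgf7, -0.20 to 0.66 for Hgf, -0.58 to 0.016 for Spry4, -0.12 to 0.094 for Fgf10, -0.030 to 0.52 for Spry1, -0.027 to 0.011 for Spred1 and -0.47 to 0.068 for Dusp6. At 7 dpi it gave -0.23 to 0.14 for Fgf2, -0.13 to 0.40 for Dusp6, -0.12 to 0.003 for Fgf10 and -0.36 to 0.051 for Fgf18. Between days it gave -0.044 to 0.12 for Fgf7 in controls, and in Osr1cKO -0.15 to 0.38 for Spry1, -0.026 to 0.17 for Spry4 and -0.26 to 0.009 for Spred1. In the interaction it gave -0.16 to 0.074 for Fgf10, -0.49 to 0.37 for Hgf, -0.53 to 0.012 for Spry4 and -0.089 to 0.32 for Fgf18. The cause of these sign changes was not tested.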
